A study of Homo sapiens with 8 samples.

Results

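The enzymes of fatty acid oxidation were followed in LNCaP cells, grown from a metastasis of human prostate cancer, through 10 genes chosen by symbol with earlier results of these data known: CPT1A and CPT2 of the carnitine shuttle, the acyl-CoA dehydrogenases ACADVL, ACADL, ACADM and ACADS, the trifunctional protein genes HADHA and HADHB, and AMACR and ACOX3 of the peroxisome. They were read by 11 probes, chosen by the RefSeq accession printed for each probe, and all 10 were among the 28850 genes tested. Of these 28850, 17858 carried a gene symbol, and the others were counted under the name printed for their probe. The cells, kept in RPMI-1640 with serum, had received 30 nM of an siRNA against GATA2, a transcription factor gene, or of a scrambled control siRNA, and RNA was taken at 72 h. There were 4 arrays labelled siGATA2 and 4 labelled siControl, described by the submitters as biological replicates, each hybridised to a one-colour Agilent array. A single siRNA product against GATA2 was used, in a single cell line and at a single time.

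Mitochondria break fatty acids down in cycles. CPT1A joins a long-chain acyl group to carnitine at the outer membrane, a carrier takes it across, and CPT2 returns it to coenzyme A inside. An acyl-CoA dehydrogenase suited to the length of the chain then opens each cycle, and the trifunctional protein of HADHA and HADHB carries long chains through the remaining steps. Branched and very long chains are handled in peroxisomes, where AMACR turns branched acyl-CoA into the form that an acyl-CoA oxidase such as ACOX3 can use. AMACR is known as a tissue marker of prostate cancer, and prostate tumours are known for their use of fatty acids.

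On the arrays labelled siGATA2, ACADL and AMACR were lower and ACADVL, ACADS, CPT1A, ACOX3, HADHB and CPT2 were higher, with 0.05 as the limit on the adjusted p of limma. HADHA and ACADM were not called. Of the 10 genes 2 were thus called lower and 6 higher, where 14.2% of all genes tested were called lower, 12.3% higher and 26.5% either way. Lower by at least 2-fold were 2 of them, beside 7.13% of all genes, and higher by at least 2-fold were also 2, beside 4.52% of all genes. Their median log2 fold change, siGATA2 minus siControl, was 0.66, against 0.09 over all genes. For 9 of the 10 genes the arrays of one group all lay on one side of those of the other, 7 higher and 2 lower in siGATA2. This held for 32.6% of all genes, 16.2% higher and 16.5% lower. ACADL stands in a module of genes that the study selected partly on these arrays, so its fall is not independent evidence.

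**Figure D1:**
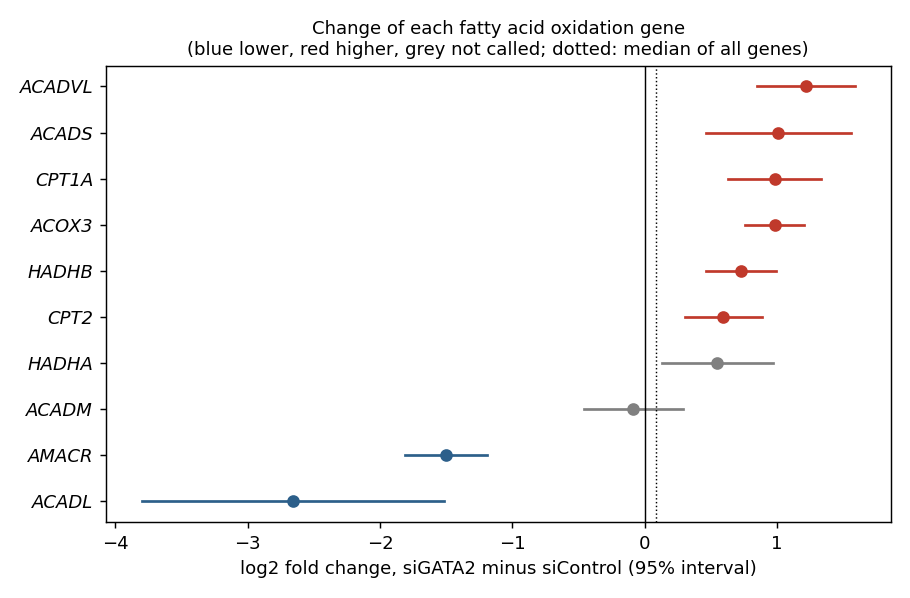
Log2 fold change of each of the 10 genes, siGATA2 minus siControl, with its 95% interval from limma, ordered by size (blue called lower, red called higher, grey not called). ACADL at -2.66 and AMACR at -1.50 lie to the left of 0, ACADM at -0.09 lies across it, and the other genes lie to its right, up to ACADVL at 1.22; the dotted line is the median of all genes, 0.09.

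Several facts of the arrays touch these values. All 8 lay on 1 slide and were scanned once. Slide row 1 held siGATA2 arrays 1 to 3 and siControl array 4. Slide row 2 held siControl arrays 1 to 3 and siGATA2 array 4. Group and slide row thus went largely together, so a difference between the rows would fall partly on the comparison of the groups. Fits with slide row as a block are given below. Between 24241 and 36968 probes were well above background, a flag that Feature Extraction sets for each spot. The numbers were lowest on siControl arrays 3 and 1, whose negative controls had standard deviations of 7.26 and 4.49 intensity units. Of the 28850 genes behind every share of all genes, 18419 were well above background on all 8 arrays, as were 9 of the 10 genes followed. The mean signal of the E1A spike-ins, RNAs added in known amounts at labelling, was low on siControl array 1, at -2.53 log2 units relative to the remaining siControl arrays. The signal of GATA2 itself was 12.61, 12.54, 11.57 and 11.40 in siGATA2 arrays 1 to 4 and 11.74, 11.28, 11.10 and 11.29 in siControl arrays 1 to 4, a log2 fold change of 0.68 (standard error, SE, 0.312, limma adjusted p = 0.154). No fall of the targeted transcript was therefore measured by the 1 probe tested for GATA2, and every direction below rests on the labels of the arrays. All 9 prostate epithelial markers examined were well above background on all 8 arrays. KLK3, the gene of prostate-specific antigen, was among the 5 called lower and KRT8 was the 1 called higher, beside 14.2% and 12.3% of all genes. The summed signal of the 9 markers was 337000 to 514000 in siGATA2 and 480000 to 586000 in siControl.

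The carnitine shuttle genes were both higher on the arrays labelled siGATA2. CPT1A, the enzyme that sets the pace of entry into mitochondria, was 12.67, 12.71, 12.49 and 12.44 log2 units in siGATA2 arrays 1 to 4 and 11.98, 11.45, 11.51 and 11.43 in siControl arrays 1 to 4. Every siGATA2 value lay above every siControl value, and siControl array 1 was the highest of its group. The log2 fold change was 0.98 (SE 0.152, limma adjusted p = 0.00222), or 1.98-fold. For CPT2 the signals were 13.53, 13.52, 13.90 and 13.79 in siGATA2 and 12.96, 13.09, 13.22 and 13.10 in siControl. The groups did not overlap here either, and the log2 fold change was 0.59 (SE 0.125, limma adjusted p = 0.00982), or 1.51-fold. With 75th percentile scaling CPT2 was not called (0.51, limma adjusted p = 0.0765).

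The acyl-CoA dehydrogenases did not move together. ACADVL, which acts on very long chains, had signals of 16.80, 16.85, 16.40 and 16.42 on the log2 scale in siGATA2 and 15.69, 15.30, 15.22 and 15.40 in siControl. All siGATA2 values were higher, and ACADVL had the largest rise of the 10 genes, at a log2 fold change of 1.22 (SE 0.16, limma adjusted p = 0.000986), or 2.32-fold. ACADS, which acts on short chains, had signals of 9.93, 10.00, 10.75 and 10.67 in siGATA2 and 8.94, 9.40, 9.53 and 9.45 in siControl. It was 2.01-fold higher, with a log2 fold change of 1.01 (SE 0.237, limma adjusted p = 0.0158). Its siGATA2 arrays 1 and 2 lay below arrays 3 and 4, and siControl array 1 was the lowest of all. Without siControl arrays 1 and 3 the log2 fold change of ACADS was 0.91 and was not called (limma adjusted p = 0.0706).

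ACADM, the dehydrogenase of medium chains, had signals of 11.13, 11.04, 11.50 and 11.64 on the log2 scale in siGATA2 and 11.24, 11.57, 11.43 and 11.42 in siControl. The groups overlapped, and the log2 fold change was -0.09 (SE 0.162, limma adjusted p = 0.723), with a 95% interval from -0.46 to 0.29. A change of 2-fold either way lay outside that interval, while changes within its limits could not be told from none with 4 arrays per group. As for ACADS, siGATA2 arrays 1 and 2 lay below arrays 3 and 4.

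ACADL, the dehydrogenase of long and branched chains, was the dimmest of these probes and moved the other way. Its normalized signal was 3.37, 3.52, 3.64 and 4.13 log2 units in siGATA2 arrays 1 to 4 and 4.75, 7.09, 6.75 and 6.72 in siControl arrays 1 to 4. Before normalization the processed signal was 11.9, 13.3, 11.4 and 17.8 intensity units in siGATA2 and 17.4, 152, 98.1 and 105 in siControl. The siControl arrays 2, 3 and 4 thus stood far above all siGATA2 arrays, whereas siControl array 1 read 17.4 units, above siGATA2 arrays 1 to 3 and just below array 4, and lay above all 4 only after normalization. The probe was well above background on all 4 siGATA2 arrays and on 3 of 4 siControl arrays, array 1 being the exception.

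The log2 fold change of ACADL was -2.66 (SE 0.494, limma adjusted p = 0.00541), or 6.32-fold lower, with a 95% interval from -3.80 to -1.52. The exact two-sided permutation p of the group means was 0.0286, the smallest that 4 arrays against 4 allow. Without siControl array 1 the log2 fold change was -3.19. With normexp background correction, which adds an offset of 50 and so shrinks the fold of dim probes, it was -1.04. The direction and the call held under all 23 alternatives run, while the size ran from -3.29 to -1.04.

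**Figure D2:**
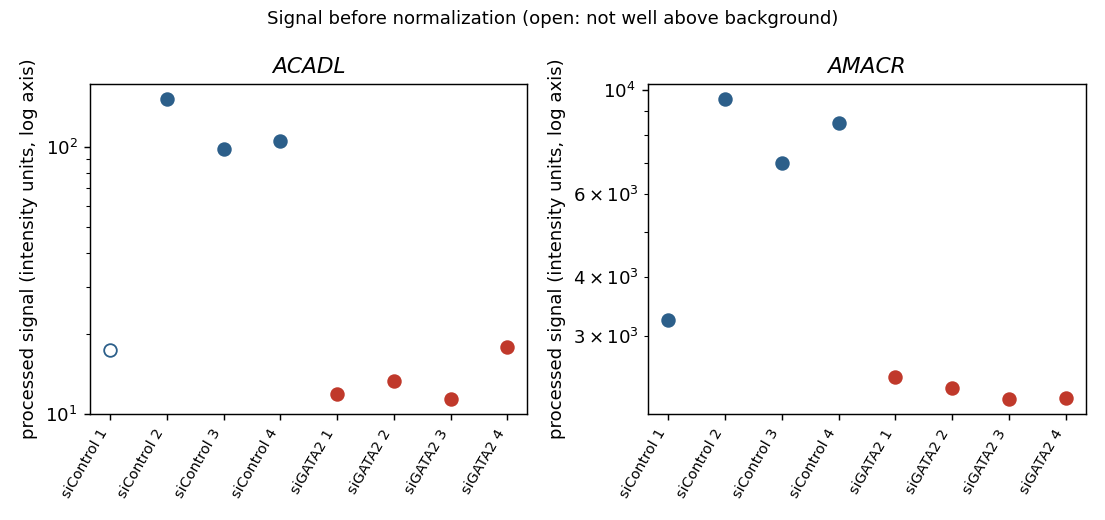
Processed signal of the ACADL probe and of the brighter AMACR probe before normalization, in intensity units on a log axis, for each array (blue siControl, red siGATA2; an open circle marks a spot not well above background). ACADL read 98.1 to 152 units on siControl arrays 2 to 4 and 11.4 to 17.8 on the siGATA2 arrays, with siControl array 1 at 17.4; for AMACR the siControl arrays lay between 3255 and 9576 units and the siGATA2 arrays between 2209 and 2465.

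HADHA and HADHB encode the alpha and beta subunits of the trifunctional protein. HADHB had signals of 15.28, 15.30, 15.61 and 15.58 on the log2 scale in siGATA2 and 14.70, 14.76, 14.71 and 14.68 in siControl. All siGATA2 arrays were higher, and the log2 fold change was 0.73 (SE 0.114, limma adjusted p = 0.00233), or 1.66-fold. HADHA had signals of 13.30, 13.49, 13.86 and 13.84 in siGATA2 and 12.71, 13.14, 13.19 and 13.25 in siControl. Its groups did not overlap, although siGATA2 array 1 lay only just above siControl array 4, and its log2 fold change of 0.55 (SE 0.182) missed the threshold, with an adjusted p of 0.0601 from limma. With replicate number as a block HADHA was called higher (limma adjusted p = 0.0309), as it was under 4 other alternatives. The difference between the subunits, HADHB minus HADHA on the log2 scale, was 1.98, 1.81, 1.75 and 1.74 in siGATA2 and 2.00, 1.62, 1.52 and 1.42 in siControl. It changed by 0.18 between the groups (exact two-sided permutation p = 0.257). The result rested on siControl array 1, the highest of the 8: without it the change was 0.30 and the groups did not overlap (exact two-sided permutation p = 0.0286, the smallest that 4 arrays against 3 allow).

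AMACR, the racemase, was measured by probes for different transcripts, and both were lower. The brighter probe had signals of 11.39, 11.24, 10.99 and 11.06 on the log2 scale in siGATA2 and 12.46, 12.77, 12.65 and 12.81 in siControl. No value of a group came within 1 log2 unit of the other group, and AMACR had the smallest adjusted p of the 10 genes. Its log2 fold change was -1.50 (SE 0.134, limma adjusted p = 0.000146), or 2.83-fold lower. The dimmer probe had signals of 8.37, 8.23, 8.07 and 7.96 in siGATA2 and 10.13, 9.86, 9.83 and 9.90 in siControl, with a log2 fold change of -1.77 (SE 0.13, limma adjusted p = 6.36e-05 over all 35514 probes). Among all probes 14.5% were called lower. Both probes were well above background on all 8 arrays. The dimmer probe minus the brighter was -3.02, -3.01, -2.92 and -3.10 in siGATA2 and -2.33, -2.90, -2.83 and -2.92 in siControl. Between the groups this difference changed by -0.27 (exact two-sided permutation p = 0.0286). It rested largely on siControl array 1: without it the change was -0.13 (exact two-sided permutation p = 0.0571), so that an unequal fall of the probes was not shown. Under the alternatives the log2 fold change of AMACR ran from -2.14 to -1.44, and it was called lower under all 23.

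ACOX3, the oxidase that acts on branched acyl-CoA in the peroxisome, was higher. Its signals were 11.62, 11.69, 11.72 and 11.49 on the log2 scale in siGATA2 and 10.70, 10.67, 10.62 and 10.59 in siControl. The groups lay well apart with little spread, and the log2 fold change was 0.98 (SE 0.0965, limma adjusted p = 0.000228), or 1.97-fold. AMACR and ACOX3, which follow each other in the breakdown of branched chains, thus differed in direction on the same arrays.

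**Figure D3:**
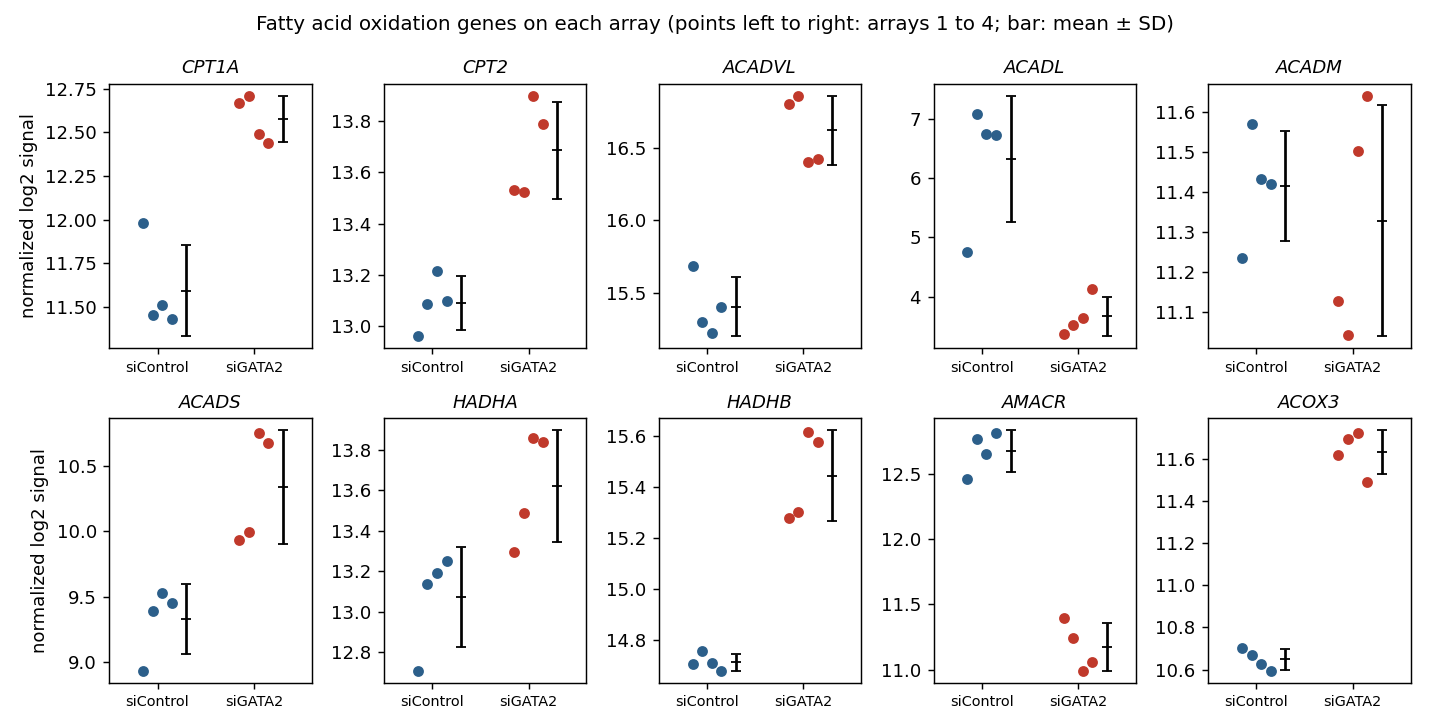
Normalized log2 signal of the 10 genes on each array (blue siControl, red siGATA2; points from left to right are arrays 1 to 4 of a group, bars are the mean ± SD, n = 4; each panel has its own axis). Groups overlap for ACADM, from 11.04 to 11.64, and for no other gene; siControl array 1 stands apart for ACADL at 4.75 and for CPT1A at 11.98.

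The spread within the siGATA2 arrays had a shape that recurred. On arrays 3 and 4 the signals of ACADL, ACADM, ACADS, CPT2, HADHA and HADHB were higher than on arrays 1 and 2, and those of ACADVL, CPT1A and AMACR were lower, while those of ACOX3 overlapped. GATA2 itself was lower on arrays 3 and 4 than on arrays 1 and 2, as given above. On siControl array 1 the signal was the lowest of its group for ACADL, ACADM, ACADS, CPT2 and HADHA. It was the highest of its group for ACADVL, CPT1A and GATA2. For these genes the array thus lay to the same side as siGATA2 arrays 1 and 2. It did not for HADHB, where it lay within its group, or for AMACR, where it was lowest. These are the values of 4 siGATA2 arrays and of siControl array 1. Whether the arrays differ in culture or handling was not tested.

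Whether the rises were called depended on how the arrays were scaled, and the calls of both falls did not. Over all genes the median log2 fold change was 0.09 after quantile normalization, 0.18 after scaling to the 75th percentile and -0.42 after scaling to the E1A spike-ins. With spike-in scaling 0 of the 6 rises were called by limma, and 0 of the 10 genes were higher at an unadjusted p under 0.05. CPT2 then changed sign, to -0.10, as did HADHA, which was not called either way, to -0.13, and HADHB was at 0.00172. ACADVL, ACADS, CPT1A and ACOX3 stayed above 0, at 0.44, 0.46, 0.35 and 0.36. Measured from the median of all genes under that scaling, all 6 lay above it, from 0.33 for CPT2 to 0.88 for ACADS, and ACADL and AMACR lay below it by -2.64 and -1.72. Without siControl array 1, an alternative added once the data had been seen, the median of all genes was -0.00147, and ACADVL, ACADS, CPT1A and ACOX3 were called higher at 0.93, 0.76, 0.86 and 0.78, whereas CPT2 and HADHB were not called at 0.23 and 0.38. ACADL and AMACR were called lower under both.

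**Figure D4:**
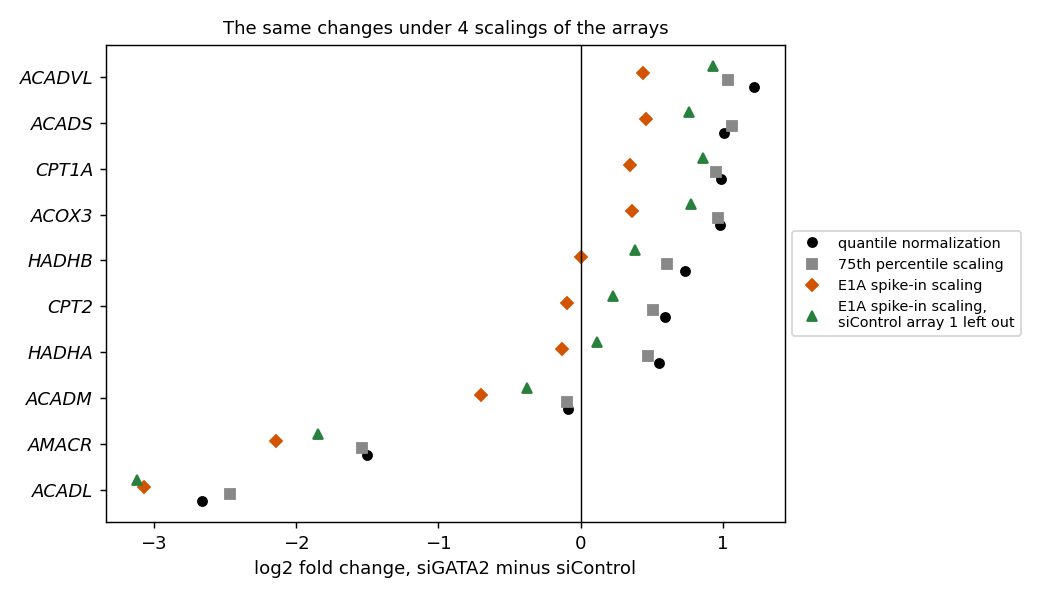
Log2 fold change of the 10 genes, siGATA2 minus siControl, under quantile normalization (black circles), 75th percentile scaling (grey squares), E1A spike-in scaling (orange diamonds) and spike-in scaling with siControl array 1 left out (green triangles). The orange points lie to the left of the others for every gene but ACADL, with CPT2 at -0.10 and HADHA at -0.13 crossing 0, while AMACR, between -2.14 and -1.50, and ACADL, between -3.12 and -2.46, stay far below 0.

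The genes differ in the sequence before their start. All 10 were matched by symbol to the RefSeq promoter table (GRCh38.p14), and the 250 bases before the gene start are shown for 3 of them: for the genes called lower, and for HADHB, which shares 194 of these bases, on the opposite strand, with HADHA, whose start lies 307 bases away in the opposite direction. Each is written 5′ to 3′ on the strand of the gene, with capitals for matches to a GC box (GGGCGG) or a CCAAT box (CCAAT) on either strand. ACADL lies at chr2:210225448-210225697, minus strand, AMACR at chr5:34008051-34008300, minus strand, and HADHB at chr2:26244689-26244938, plus strand.
ACADL: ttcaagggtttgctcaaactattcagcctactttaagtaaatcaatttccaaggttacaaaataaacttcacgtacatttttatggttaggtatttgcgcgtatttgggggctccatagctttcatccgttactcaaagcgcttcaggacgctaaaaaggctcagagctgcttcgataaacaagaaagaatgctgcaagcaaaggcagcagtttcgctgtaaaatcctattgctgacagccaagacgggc
AMACR: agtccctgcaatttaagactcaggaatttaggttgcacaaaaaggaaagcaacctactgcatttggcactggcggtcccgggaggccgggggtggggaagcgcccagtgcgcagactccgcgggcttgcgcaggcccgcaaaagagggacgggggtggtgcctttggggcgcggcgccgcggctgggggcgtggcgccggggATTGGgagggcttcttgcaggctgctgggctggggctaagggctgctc
HADHB: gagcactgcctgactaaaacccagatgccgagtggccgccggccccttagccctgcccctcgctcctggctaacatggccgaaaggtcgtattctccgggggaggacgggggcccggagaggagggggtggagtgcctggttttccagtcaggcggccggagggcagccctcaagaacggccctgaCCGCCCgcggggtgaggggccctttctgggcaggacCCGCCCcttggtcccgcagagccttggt
The ACADL sequence was 42.0% G or C and held neither motif, AMACR was 66.4% G or C with 1 CCAAT box, and HADHB was 69.2% with 2 GC boxes. Among the 27305 promoters listed, 42.3% held a GC box and 33.0% a CCAAT box. The letters AGATAA, a form of the GATA motif, were found on either strand in 9.37% of all promoters and in none of these 3. Of the 10 genes 1, ACADVL, held them, before its upstream start and not before its other listed start. Where a gene had several listed starts, as ACADVL and ACOX3 did, the shares count the first listed. A match is a description of letters only, as is the lack of one.

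The wider pathway was followed in 8 further lists with 91 genes, of which 87 were tested. CD36, FABP4, SLC27A6 and ABCD2 had a mean under 3 on the log2 scale and were not tested. Of the 87 genes 15 were called lower and 18 higher by limma, with a median log2 fold change of 0.16, against 14.2% lower, 12.3% higher and 0.09 over all genes. With spike-in scaling 14 of the 18 stayed above 0 and 0 were called, 1 of the 87 genes being higher at an unadjusted p under 0.05, and 8 of the 15 lower genes kept their call. When siControl array 1 was also left out, 9 of the 18 and 13 of the 15 kept their call.

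Peroxisomal enzymes and transporters gave 7 higher genes and 1 lower of 15 tested, beside 12.3% and 14.2% of all genes. Their median log2 fold change was 0.45. ACAA1, the thiolase that closes the peroxisomal cycle, was 15.55 ± 0.119 (SD, n = 4) on the log2 scale in siGATA2 and 14.24 ± 0.11 (SD, n = 4) in siControl, so that the log2 change was 1.31 (limma adjusted p = 0.000105). The oxidase ACOX2, for branched chains and bile acid precursors, rose by 1.00, beside the 0.98 of ACOX3. ECH1, an isomerase, rose by 1.04. HSD17B4 and EHHADH, the bifunctional enzymes between oxidase and thiolase, were at 0.06 and 0.45 and were not called. The calls of DECR2, an enzyme for unsaturated chains, and PHYH, which starts the breakdown of phytanic acid, were lost with 5 and 3 of the 8 arrays left out singly, and that of DECR2 with slide row as a block (limma adjusted p = 0.139). With spike-in scaling 5 of the 7 stayed above 0, and 0 were called by limma. When siControl array 1 was also left out, all 7 stayed above 0 and 3 were called higher.

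Among the other mitochondrial enzymes of the cycle 1 of 13 genes was higher and 2 were lower, beside 12.3% and 14.2% of all genes, with a median log2 fold change of 0.21. ETFA, which takes electrons from the acyl-CoA dehydrogenases, was higher at 1.40 (limma adjusted p = 0.0159), with siControl array 1 lowest at 12.43. With slide row as a block it was not called (1.43, limma adjusted p = 0.0553). HSD17B10, a short-chain hydroxyacyl-CoA dehydrogenase, and ECI2, an isomerase for unsaturated chains, were lower at -0.73 and -0.57. HADH and ACAA2, which do for shorter chains what the trifunctional protein does for long ones, both had a value of -0.25 and were not called.

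The carnitine shuttle and its control gave 3 higher genes of 7, beside 12.3% of all genes. SLC25A20, the carrier that moves acylcarnitine across the inner membrane, was higher by 1.33 (limma adjusted p = 0.00996), SLC22A5, the carnitine importer of the cell, by 0.81 and CPT1C, a relative of CPT1A known from neurons, by 1.53. Together with CPT1A and CPT2, genes for each step of the shuttle were thus higher under quantile normalization. With spike-in scaling all 3 stayed above 0 and 0 were called, and when siControl array 1 was also left out 2 of the 3 were called higher. None of the 7 was called lower by limma or by the methods' t-test, and 1, ACACB, was lower at an unadjusted p under 0.05.

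Uptake and activation of fatty acids gave 4 lower and 2 higher genes of 14 tested, with a median log2 fold change of -0.26. Over all genes 14.2% were lower and 12.3% higher, so the higher genes of the list were close to that share. ACSL3, a long-chain acyl-CoA synthetase known to respond to androgen, was higher at 1.13 (limma adjusted p = 0.000183), and FABP5, a fatty acid binding protein, at 0.91. ACSM3 and ACSM1, medium-chain synthetases, were lower at -1.40 (limma adjusted p = 0.00879) and -1.27, and ACSL4, a synthetase for polyunsaturated chains, at -1.04. On the siControl arrays the ACSM1 probe stood well above background on 2 of 4 and that of ACSL4 on 3 of 4, so the sizes of their falls are less firm.

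Among the regulators 4 of 10 were lower and 2 higher, beside 14.2% and 12.3% of all genes. PPARA, the nuclear receptor that drives oxidation genes in liver, was 9.70 ± 0.131 (SD, n = 4) in siGATA2 and 8.81 ± 0.123 (SD, n = 4) in siControl, so that the log2 change was 0.89 (limma adjusted p = 0.00083), and PRKAA1, a catalytic subunit of the AMP-activated kinase, was higher at 0.53. Both values are of the brightest probe. A dimmer probe was not called for PPARA (0.74, limma adjusted p = 0.0723 over all probes) or for PRKAA1 (0.19, limma adjusted p = 0.614). PPARD, a relative of PPARA, was lower at -1.30 (limma adjusted p = 0.00191). The coactivator PPARGC1B was lower at -1.06 and the receptor ESRRA, a partner of such coactivators, at -0.57. PPARGC1A was called lower too, at -1.92, but was well above background on only 2 of 4 arrays in each group. With spike-in scaling PPARA stayed above 0 and PRKAA1 did not.

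Of 15 peroxisome assembly genes 2 were lower and 2 higher, close to the 14.2% and 12.3% of all genes. PEX26, which anchors the import machinery, was lower at -1.46 (limma adjusted p = 8.67e-05), and PEX3 at -0.43. PEX13, a part of the import pore, was higher at 0.84 (limma adjusted p = 0.000732), and PEX19, which delivers membrane proteins, at 0.61. The calls of PEX3 and PEX19 were each lost with 4 of the 8 arrays left out singly, and that of PEX3 with slide row as a block (limma adjusted p = 0.0819).

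**Figure D5:**
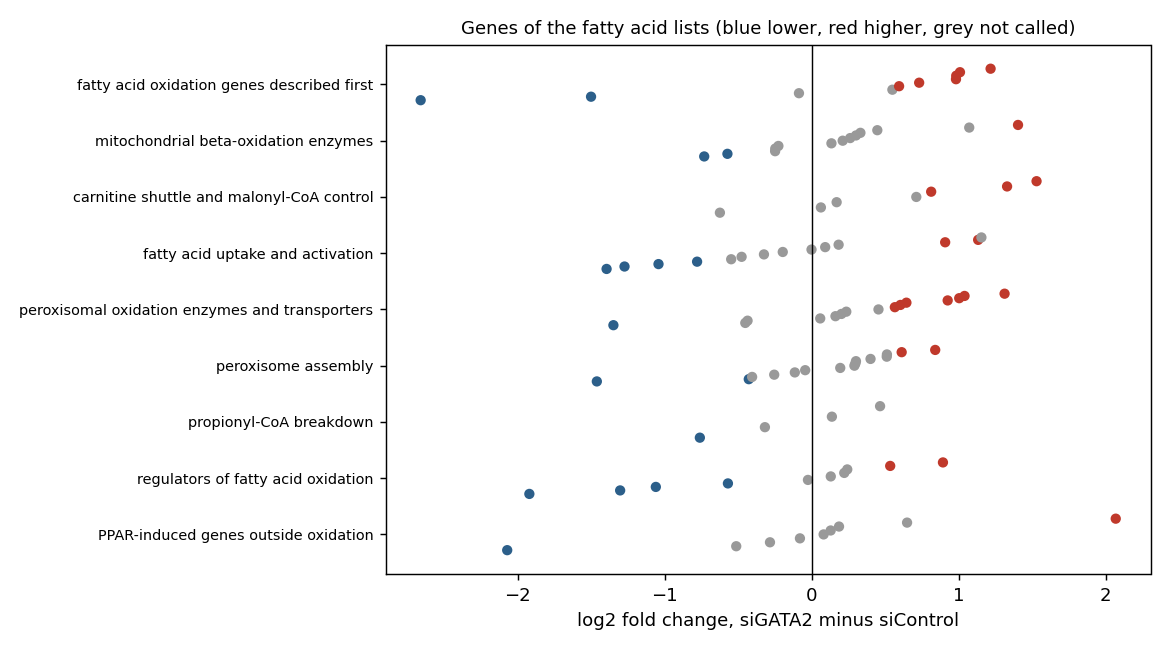
Log2 fold change, siGATA2 minus siControl, of each tested gene of the fatty acid lists, 1 row per list and 1 point per gene (blue called lower, red called higher, grey not called). Peroxisomal enzymes show 7 red points and 1 blue, the uptake and activation list 4 blue and 2 red, and the regulators 4 blue and 2 red.

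Genes known as markers of other cell types moved as well, in these cultures of a single cell line. Over all genes 14.2% were called lower and 12.3% higher. Hepatocyte markers, of which 5 of 6 were tested and 3 were well above background on all 8 arrays, gave 3 lower and 1 higher gene, and their summed signal was 791 to 1110 in siGATA2 and 1840 to 3290 in siControl. Leukocyte markers gave 2 higher of 5, with a sum of 1210 to 1380 against 654 to 798. Adipocyte markers gave 1 higher of 3 tested, CIDEC, with a sum of 3220 to 3330 against 1990 to 2320, and fibroblast markers 1 lower of 5 tested, with 423 to 862 against 626 to 1050. The most abundant genes of these lists were TTR, PTPRC, CIDEC and COL1A1. All these sums were small beside that of the prostate epithelial markers, and their part in the changes of the oxidation genes was not tested. Every sample was labelled as LNCaP cells, so these sums are signals of transcripts and do not measure how many cells of other kinds were present.

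By the root mean square difference of centred log2 signals over the 8 arrays, the genes closest to ACADL among 16557 were UGT2B7, at 0.212, CCDC80, at 0.277, and CSGALNACT1, at 0.278. Closest to AMACR were FRY, ATAD2 and CDC7, at 0.0641, 0.0661 and 0.0686. The measure follows the change between the groups as well as the spread within them, and it was applied to the brightest probe of each gene.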

How the data were processed

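RNA of LNCaP cells was labelled with Cy3 and hybridised to 8 one-colour arrays. For each spot the authors deposited an intensity written by Agilent Feature Extraction 11.0.1.1, whose processed signal is background-corrected, and a table of log2 values. The methods name quantile normalization in GeneSpring. The deposited log2 values had medians between 7.4667 and 7.4681 on the 8 arrays. They followed the processed signal of the same array most closely (correlation across probes of at least 0.985). The array design named in the files differs from that in the methods.

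Spots flagged as outliers were left out, log2 processed signals of a probe were averaged, and 42405 probes were quantile-normalized over the 8 arrays. Of these, 26364 were named through a RefSeq table (GRCh38.p14), and 1914 without annotation and probes with a mean under 3 were removed. The brightest probe stood for a gene, and probes without a symbol were counted under their printed name. The groups, taken from the labels, were compared with limma 3.58.1 in R 4.3.3, where the methods name a t-test, with Benjamini-Hochberg adjustment over all 28850 genes and a threshold of 0.05. The fit was tested on simulated data with independent noise for each gene and array, so differences that many genes of an array share were not covered. Arrays have no read depth, so precision is limited by their number.

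The members and lists were chosen with earlier results of these data known. The text names all 10 members, GATA2, fixed partner genes and markers, up to 3 called genes in each direction of each list with all arrays of 1 group or more well above background, and the 3 genes closest in pattern to ACADL and to AMACR. Genes counted outside this rule are named where 5 or fewer, and some genes that the rule names are not reported here. Alternatives were other scalings (75th percentile, 7 E1A spike-in probes), normexp on the median signal with an offset of 50, looser and stricter limits on dim probes, the log2 values as deposited, a plain t-test as in the methods, array weights, an intensity trend, the mean over probes, blocks by replicate number, title letter and slide row, and leaving out arrays. The samples were treated as unpaired in the main fit.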

Additional observations from a re-analysis of the deposited data

Results flagged for a closer look

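Among 22 groups of 4 values examined, for the 10 genes and GATA2, 2 had an array far from the others, where chance gives about 1 in 20, and both were siControl array 1. ACADL had a log2 signal of 4.75 there, against 6.72 to 7.09 for the rest of the group, and the gap made up 0.842 of the group's range. CPT1A had 11.98 there, against 11.43 to 11.51, and the gap made up 0.861 of the range. For both genes this array lay nearer to the siGATA2 values than the other siControl arrays did, and without it the log2 fold changes were -3.19 for ACADL and 1.11 for CPT1A. In both genes the array also lay to the side on which siGATA2 arrays 1 and 2 lay within their group. The spike-in signal of the same array was the lowest of the 8, and its part in these values was not tested.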

How the results depend on the processing

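Each of the 10 genes was refitted under 23 alternatives. Direction and call were kept in 211 of these fits. With the direction kept, the call was lost in 9 and gained in 6. The sign turned in 4, and CPT2 lost its call there as well. The gained calls were those of HADHA and, with array weights, of ACADM as lower (-0.32). The sign turned for CPT2 (-0.10) and HADHA (-0.13) with spike-in scaling. It also turned for ACADM, never called there, with slide row as a block (0.015) and without siGATA2 replicate 2 (0.0080). With any other array left out singly ACADM stayed below 0, down to -0.19. The 6 genes called higher fell to 0 with spike-in scaling, and the 2 higher by at least 2-fold to 0 with spike-in scaling, to 0 with spike-in scaling without siControl array 1 and to 1 with normexp background correction. Limma found 0 of the 10 genes higher at an unadjusted p under 0.05 with spike-in scaling of all arrays and 4 without siControl array 1. In the 8 other lists, the 15 lower and 18 higher genes became 8 and 0 with spike-in scaling and 28 and 32 with array weights, and 9 were higher with spike-in scaling without siControl array 1. With array weights GATA2 rose by 1.11 (limma adjusted p = 0.00181). Over all genes 4086 were lower and 3558 higher, 1880 and 141 with spike-in scaling (93% of calls lower, against 53.5%), 4298 and 1788 when siControl array 1 was also left out (70.6% lower), 7585 and 8077 with array weights, 4947 and 5338 with title letter as a random block, and 2987 and 2184 with slide row as a block. The cause of these changes was not tested. Spike-in scaling without siControl array 1, and the differences between HADHB and HADHA and between the AMACR probes without that array, were added after seeing the data.

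With each array left out in turn, 2 genes were called lower throughout and 2 lower by at least 2-fold, 6 to 7 were higher and 2 to 3 higher by at least 2-fold, and in the other lists 14 to 18 genes were lower and 14 to 20 higher. The log2 fold change was -3.19 to -2.41 for ACADL, -1.57 to -1.44 for AMACR and 0.49 to 0.89 for GATA2. Arrays of the same replicate number deviated from their groups with correlations of 0.54, -0.31, 0.17 and 0.22. Correlations between unlike numbers were not computed, so these values cannot decide whether replicate numbers pair the samples. The letters B and F in the array titles occur in both groups, under unlike replicate numbers. These correlations do not speak to a pairing by letter, which was fitted only as a random block. With the replicate block 7 of the 10 genes were higher, HADHA being added, and the 2 lower genes, ACADL at -2.66 (limma adjusted p = 0.00889) and AMACR at -1.50 (limma adjusted p = 0.00435), kept their call.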

Other observations

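Genes that PPARA and its relatives are known to induce outside oxidation itself gave 1 lower and 1 higher gene of 9, beside 14.2% and 12.3% of all genes. ANGPTL4, a secreted inhibitor of lipoprotein lipase, was higher at 2.07 (SE 0.601, limma adjusted p = 0.0375), with signals of 6.53, 6.51, 6.51 and 6.62 in siGATA2 and 5.29, 5.13, 2.44 and 5.03 in siControl. The siControl array 3 was far below the rest, and without it the log2 fold change was 1.39 (limma adjusted p = 0.000342), and the call was lost without any 1 of 6 other arrays and with slide row as a block (limma adjusted p = 0.134).

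Branched and odd chains leave propionyl-CoA. Of the 4 genes of its breakdown MMUT, the mutase that makes succinyl-CoA, was lower at -0.76 (SE 0.124, limma adjusted p = 0.0028), and PCCA, PCCB and MCEE were not called. None was called higher by limma or by the methods' t-test, and 0 were higher at an unadjusted p under 0.05.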
